A study of Mus musculus with 9 samples.

Results

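The 10 genes described here encode the core of the BCL2 family, the proteins that decide whether the outer membrane of the mitochondrion stays closed or opens and lets a cell die by apoptosis. They were named as a list: 5 survival genes (Bcl2, Bcl2l1, Mcl1, Bcl2a1b and Bcl2a1d) and 5 death genes (Bbc3, Bcl2l11, Bid, Bax and Bak1), out of 52476 symbols and unmatched identifiers in the tables. All 10 were present, and all 10 were among the 11768 genes that passed the filter on low values. The libraries came from dendritic cells of C57BL/6 mice, grown over 7 days from bone marrow monocytes in GM-CSF (100 ng/mL) plus IL-4 (50 ng/mL), and sorted by flow cytometry. There were 3 control libraries without stimulation, 3 of cells treated with R837, the Toll-like receptor 7 agonist imiquimod, and 3 of cells treated with R837 plus the polyamine spermidine. In the protocol, interferon α primed the cells for 24 h before the 18 h of R837, which was given with or without spermidine. Whether the controls were primed is not stated in the labels, nor whether replicates were separate cultures or animals, so the p-values measure only the spread between these libraries.

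Survival members of the family bind and hold back the pore formers BAX and BAK, whose genes are Bax and Bak1. The BH3-only members (PUMA from Bbc3, BIM from Bcl2l11, and BID) bind the survival proteins, and BIM and BID can also switch on the pore formers directly. In dendritic cells, signals from Toll-like receptors are known to change both arms, and the balance between them is known to limit how long an activated cell lives. Much of the control of the family acts on the proteins, which an mRNA measurement does not see.

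Levels are given in FPKM (fragments counted per kilobase of a transcript and relative to all mapped fragments of the library), so that genes of different length can be compared. Each change is a difference of log2(FPKM + 1) from limma with its standard error, and "rose" and "fell" are used where the p, adjusted by Benjamini-Hochberg over the 11768 genes, was under 0.05. Of the 9 dendritic cell markers 8 had values above 0 and Cd209a was listed at 0 in every library. Flt3 was at most 0.4175 FPKM in any library. Zbtb46 had means of 0.596, 1.98 and 1.52 FPKM in control, R837 and spermidine libraries. The summed level of the 9 markers was 2855 to 2910 FPKM in the controls, 3006 to 3633 with R837 and 2858 to 3008 with spermidine added. Most of it came from the MHC class II presentation genes Cd74 and H2-Ab1, with means of 2115 and 511 FPKM in the controls. Macrophage markers were present too, at 1225 to 1530 FPKM over the 9 libraries. A pair of R837 libraries stood apart: the summed erythroid markers reached 170 FPKM in replicate 2 and 1313 FPKM in replicate 3, against at most 5.27 in the other 7 libraries. Neutrophil markers summed to 326 FPKM in R837 replicate 3 and to at most 75.4 elsewhere. B cell markers summed to 4.665 FPKM in the same library and to at most 0.603 elsewhere. The marker Adgre1 was at 71.6 FPKM in R837 replicate 2, against 145 and 161 in the other R837 libraries. The part of these markers in the results was not tested.

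The level of the members in the controls ranged from Bcl2a1b at 134 ± 19.3 FPKM (SD, n = 3) and Mcl1 at 134 ± 7.23 down to Bcl2 at 1.37 ± 0.0786. The ranges of Bcl2a1b and Mcl1 overlapped in the controls, as did those of Bcl2a1d and Bax and of Bid and Bbc3; the other neighbours in the order were separate. With R837 the order at the lower end changed. Bbc3 stood above Bcl2l1 and Bcl2l11 in the controls and below both in the R837 libraries and in those with spermidine. With spermidine, Bcl2l11 moved ahead of Bcl2l1, and Bcl2 stayed last throughout. Neighbours that overlapped were Bcl2a1b and Bcl2a1d, Bcl2a1d and Mcl1, and Bcl2l1 and Bcl2l11 with R837, and Bak1 and Bid with spermidine.

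**Figure D1:**
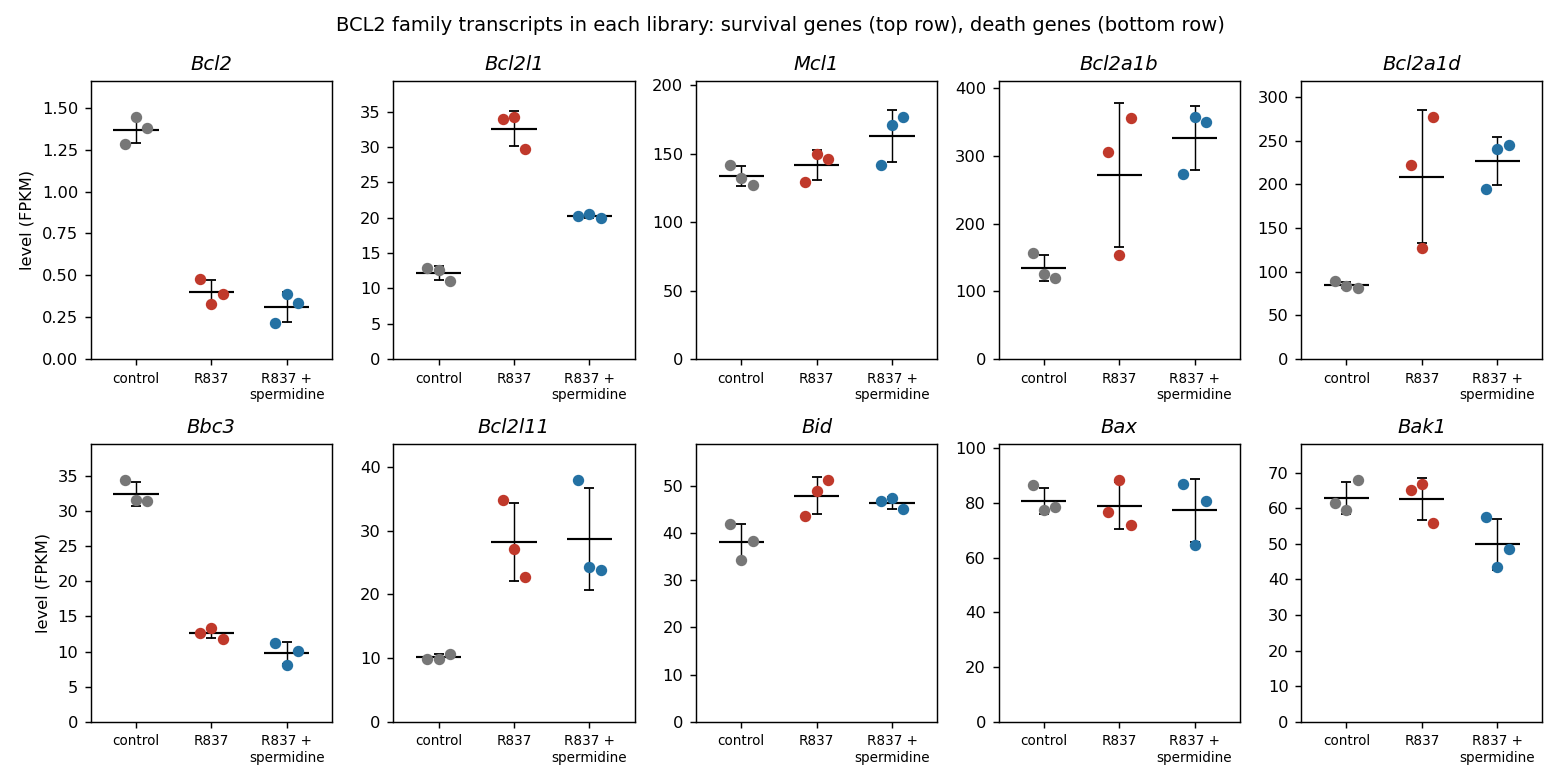
Level of each member in FPKM (vertical axes, each from 0) in the 3 control, 3 R837 and 3 R837 with spermidine libraries; points are libraries, horizontal bars are means and whiskers are 1 SD. Bcl2 and Bbc3 are lower in every treated library than in every control, Bcl2l11 is higher, and Bcl2l1 shows separate levels in the 3 groups.

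The survival protein A1 is encoded in the mouse by several near-identical copies of Bcl2a1 on chromosome 9, and reads from one copy can be counted for another. Bcl2a1b lies at chr9:89199209-89207827 on the plus strand (ENSMUSG00000089929), Bcl2a1d at chr9:88723285-88731914 on the minus strand (ENSMUSG00000099974) and the third expressed copy, Bcl2a1a, at chr9:88956900-88962419 on the plus strand (ENSMUSG00000102037), all on GRCm38. Their coding sequences have 516 bases each and differ from each other at 12 positions in all. The pairs were 98.8% (Bcl2a1b and Bcl2a1d), 98.6% (Bcl2a1a and Bcl2a1d) and 97.9% (Bcl2a1a and Bcl2a1b) identical. The first 120 coding bases hold 7 of the 12 positions and are shown from the GENCODE release 21 transcripts to let a reader see how little tells the copies apart, with the differing bases in capitals.
Bcl2a1a: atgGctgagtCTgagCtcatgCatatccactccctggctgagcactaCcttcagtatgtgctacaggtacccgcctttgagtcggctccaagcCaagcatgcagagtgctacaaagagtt
Bcl2a1b: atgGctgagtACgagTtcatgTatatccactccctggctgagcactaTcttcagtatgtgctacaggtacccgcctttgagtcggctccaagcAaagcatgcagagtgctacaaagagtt
Bcl2a1d: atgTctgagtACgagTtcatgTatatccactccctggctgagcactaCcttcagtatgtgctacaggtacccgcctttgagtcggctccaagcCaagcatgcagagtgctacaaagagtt
Between the capitals the letters are the same in all 3 copies. Of the windows of 100 bases in the whole transcript, 31.1% of those in Bcl2a1b, 54.7% in Bcl2a1d and 43.5% in Bcl2a1a were also found unchanged in another copy; at 50 bases the shares were 57.6%, 79.5% and 67.7%. The values of single copies are therefore uncertain, and the sum of the copies is given beside them.

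With R837 alone, compared with control, 3 survival genes rose (Bcl2l1, Bcl2a1b and Bcl2a1d), 2 death genes rose (Bcl2l11 and Bid), and 1 gene of each arm fell (Bcl2 and Bbc3). Mcl1, Bax and Bak1 did not pass the test. Thus 5 of 10 members rose and 2 of 10 fell, while 13.6% of all genes tested rose and 29.5% fell. Bcl2a1b and Bcl2a1d can share reads, so 2 of the 5 rises are not separate observations. With median-of-ratios scaling 18.3% of all genes were higher and 16.3% lower. The median change of the members was 0.20 on the log2 scale, against -0.17 for all genes tested. Bcl2 was at or above 1 FPKM in the controls only, so it entered the test through the group in which it was high and had to differ; without it, 1 of 9 members fell. Without both R837 libraries with erythroid markers, 1 R837 library is left, which the fit assumes to vary like the other groups. No count is given from that fit, in which the change of Bid was 0.20, against 0.32 with all libraries. These libraries are bulk RNA, in which fewer cells of a type and less RNA per cell cannot be told apart.

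Bcl2l1 encodes BCL-XL, a survival protein that binds BAX, BAK and the BH3-only proteins. It lies at chr2:152780668-152831728 on the minus strand (ENSMUSG00000007659). Its level was 12.9, 12.6 and 11.02 FPKM in the controls, 33.9, 34.2 and 29.7 FPKM with R837, and 20.2, 20.6 and 20.0 FPKM with R837 and spermidine. No library of one group reached the range of another, and the spermidine libraries lay between the others. The change with R837 was 1.35 ± 0.08 (limma adjusted p = 2.9e-06), and the gene was the 370th highest of the 11768.

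Bcl2a1b stood at 156, 126 and 120.3 FPKM in the controls, at 306, 153 and 357 FPKM with R837, and at 273, 357 and 350 FPKM with spermidine added. R837 replicate 2 was low, within the range of the controls, while the other R837 libraries and all 3 spermidine libraries were above every control. The R837 change was 0.93 ± 0.28 (limma adjusted p = 0.024). The call depended on single libraries: without R837 replicate 2 it was 1.30 (limma adjusted p = 0.00025), and without control replicate 2 or 3 or R837 replicate 1 or 3 the adjusted p was 0.069 to 0.076. It was 0.064 with quantile normalization and 0.065 in limma without the filter on low values. Bcl2a1d had 88.9, 83.5 and 81.4 FPKM in the controls, 222, 126 and 277 FPKM with R837, and 195, 240 and 245 FPKM with spermidine added. Here every treated library was above every control, and R837 replicate 2 was again the lowest of its group. Its change with R837 was 1.22 ± 0.24 (limma adjusted p = 0.0033). With Bcl2a1a, Bcl2a1b, Bcl2a1d and the barely detected Bcl2a1c (at most 1.119 FPKM) summed to a single feature the change was 1.14 (limma adjusted p = 0.0034). The share of Bcl2a1b in the sum of Bcl2a1a, Bcl2a1b and Bcl2a1d was 49.9% ± 2.40 in the controls, 43.5% ± 3.94 with R837 and 46.9% ± 1.47 with spermidine (SD, n = 3 each). In R837 replicate 2, the library low in Adgre1 and with erythroid markers, the 3 copies summed to 393 FPKM, against 664 and 785 FPKM in the others of its group. The 785 FPKM belonged to R837 replicate 3, the library with the highest summed erythroid, neutrophil and B cell markers.

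The printed stretches before the transcripts of Bcl2a1b and Bcl2a1d are shown to compare the copies outside the coding part. They are RefSeq windows of 250 bases before the annotated start on GRCm38.p6, of which bases inside a GENCODE exon are left out, and the capitals mark the letters GAGGAAGT, a core recognised by PU.1, a transcription factor of myeloid cells. The Bcl2a1b stretch is chr9:89199023-89199208 on the plus strand and the Bcl2a1d stretch chr9:88731915-88731997 on the minus strand.
Bcl2a1b: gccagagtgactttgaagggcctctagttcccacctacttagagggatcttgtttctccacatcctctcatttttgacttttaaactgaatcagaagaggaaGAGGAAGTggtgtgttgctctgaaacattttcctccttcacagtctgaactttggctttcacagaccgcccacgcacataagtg
Bcl2a1d: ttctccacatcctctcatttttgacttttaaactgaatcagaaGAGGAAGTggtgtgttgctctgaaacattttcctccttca
The match starts 148 bases before the RefSeq start of Bcl2a1b and 104 bases before those of Bcl2a1d and Bcl2a1a. The full windows of Bcl2a1d and Bcl2a1a end at letters that the Bcl2a1b window also holds and runs past. The distances thus differ by where the start is annotated, not by the surroundings of the match. In Bcl2a1b and Bcl2a1a the letters gaggaa stand once more directly before the match, which is not so in Bcl2a1d.

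Mcl1, the gene of a short-lived survival protein on which many blood cells depend, lies at chr3:95658788-95663176 on the plus strand (ENSMUSG00000038612). It was among the most abundant members in every group, at 142, 132 and 127 FPKM in the controls, 130, 150 and 147 FPKM with R837, and 142, 171 and 177 FPKM with spermidine added. The 3 groups overlapped, with the highest values in the spermidine libraries. The R837 change of 0.08 ± 0.10 did not pass (limma adjusted p = 0.53), with a 95% interval of -0.14 to 0.31; it was -0.10 after quantile normalization.

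Bcl2, which gave the family its name and protects lymphocytes in particular, lies at chr1:106538178-106714274 on the minus strand (ENSMUSG00000057329). It was barely detected: 1.29, 1.44 and 1.38 FPKM in the controls, 0.479, 0.328 and 0.389 FPKM with R837, and 0.214, 0.387 and 0.337 FPKM with spermidine. All 3 controls were above all 6 treated libraries, and the treated groups overlapped. The change with R837 was -0.76 ± 0.10 (limma adjusted p = 0.00025). Bcl2 passed the filter through the controls only, so it had to differ, and this p is no support for a fall. Because 1 was added to each value, the change is smaller than the ratio of the means, 0.291, would give. It was -1.57 with 0.1 added and -1.23 with TPM. At the depth read from the files, the value of Bcl2 rested on 16 to 119 counting units per library for its longest transcript of 7191 bases, or on 6 to 47 for its shortest coding transcript of 2841 bases.

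Among the BH3-only genes, Bbc3 and Bcl2l11 moved in opposite directions and had the largest fall and the largest rise of the 10 members with R837 against control on the log2(FPKM + 1) scale. Bbc3 encodes PUMA, a target of p53 and of FOXO3, and lies at chr7:16308393-16318205 on the plus strand (ENSMUSG00000002083). Bcl2l11 encodes BIM, known for its part in the death of activated immune cells, and lies at chr2:128126038-128162547 on the plus strand (ENSMUSG00000027381). Both hold the letters GTAAACA, bound by FOXO factors, on one of the strands before one of their RefSeq starts. The windows of 250 bases on GRCm38.p6, chr2:128125788-128126037 for Bcl2l11 and chr7:16310011-16310260 for Bbc3, are shown because these genes had those changes, with the matching letters in capitals (in Bbc3 they read TGTTTAC, the match being on the other strand).
Bcl2l11: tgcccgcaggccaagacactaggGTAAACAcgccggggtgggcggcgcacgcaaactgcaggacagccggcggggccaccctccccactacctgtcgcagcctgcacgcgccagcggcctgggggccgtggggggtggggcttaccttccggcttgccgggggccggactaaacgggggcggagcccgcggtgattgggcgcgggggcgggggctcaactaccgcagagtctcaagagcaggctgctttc
Bbc3: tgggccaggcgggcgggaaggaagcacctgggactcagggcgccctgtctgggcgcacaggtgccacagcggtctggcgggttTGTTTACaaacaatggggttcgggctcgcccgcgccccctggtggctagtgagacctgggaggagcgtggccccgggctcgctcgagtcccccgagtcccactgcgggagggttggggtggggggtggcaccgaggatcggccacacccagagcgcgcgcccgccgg
The first base of the match lies 227 bases before the start in Bcl2l11 and 167 bases before the second of 3 annotated starts in Bbc3.

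Bbc3 had 34.4, 31.6 and 31.4 FPKM in the controls, 12.7, 13.3 and 11.8 FPKM with R837, and 11.3, 8.09 and 10.0 FPKM with spermidine added. Its groups did not overlap, with the controls high and the spermidine libraries lowest. The mean with R837 was 0.388 of the control mean, a change of -1.30 ± 0.11 (limma adjusted p = 1.9e-05) and the 158th lowest of the 11768. Bcl2l11 had 9.84, 9.82 and 10.7 FPKM in the controls, 34.8, 27.2 and 22.8 FPKM with R837, and 37.9, 24.2 and 23.8 FPKM with spermidine added. Every treated library was above every control, and the treated groups overlapped over most of their range. The change with R837 was 1.38 ± 0.19 (limma adjusted p = 0.00043), the 355th highest. The ratio of Bcl2l11 to Bbc3 FPKM thereby went from 0.312 ± 0.0269 in the controls to 2.24 ± 0.442 with R837 and 2.92 ± 0.4998 with spermidine (SD, n = 3 each). This ratio is a description with no test, since it sets the member with the largest rise against that with the largest fall.

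Bid, whose protein is cut by caspase-8 and carries the signal of death receptors to the mitochondrion, lies at chr6:120891930-120916853 on the minus strand (ENSMUSG00000004446). Its level was 41.9, 34.2 and 38.3 FPKM in the controls, 43.7, 48.9 and 51.2 FPKM with R837, and 46.8, 47.5 and 45.1 FPKM with spermidine. The controls were below all treated libraries, by a small margin. The R837 change was 0.32 ± 0.09 (limma adjusted p = 0.019). The call was lost when control replicate 2 (limma adjusted p = 0.079), control replicate 3 (0.05) or R837 replicate 3 (0.06) was left out. It was also lost with both R837 libraries with erythroid markers left out, where the change was 0.20 (limma adjusted p = 0.21). With median-of-ratios scaling the change was 0.50 (limma adjusted p = 0.0021).

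The pore formers did not pass the test with R837. Bax, at chr7:45461697-45466898 on the minus strand (ENSMUSG00000003873), had 86.3, 77.5 and 78.3 FPKM in the controls, 76.8, 88.3 and 71.7 FPKM with R837, and 86.8, 64.5 and 80.6 FPKM with spermidine. Bak1, at chr17:27019810-27029009 on the minus strand (ENSMUSG00000057789), had 61.3, 59.4 and 67.9 FPKM in the controls, 65.2, 66.7 and 55.8 FPKM with R837, and 57.6, 43.5 and 48.5 FPKM with spermidine. The controls and R837 libraries overlapped for both genes, and the spermidine libraries of Bak1 were below every control. The R837 changes were -0.03 (95% interval -0.31 to 0.24) for Bax and -0.01 (-0.27 to 0.25) for Bak1. Their sign depends on the scaling: with median-of-ratios scaling, which moved the median of all genes by 0.15, they were 0.15 and 0.17.

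**Figure D2:**
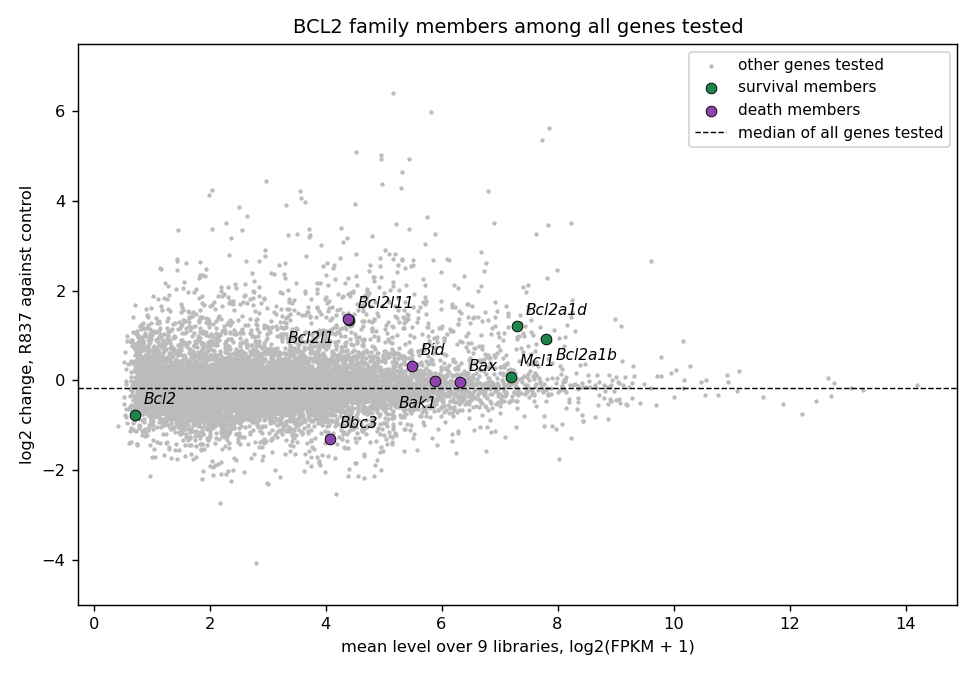
Change with R837 against control (vertical axis, log2) against the mean level over the 9 libraries (horizontal axis, log2(FPKM + 1)) for the 11768 genes tested; coloured points are the members, survival in green and death in purple, and the dashed line is the median of all genes at -0.17. Bbc3 at -1.30 and Bcl2l11 at 1.38, whose point covers that of Bcl2l1 at 1.35, lie toward the edges of the cloud, and Bak1, Bax and Mcl1 lie near its middle.

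Summed over each arm, the survival genes were higher in the treated libraries and the death genes were not. The survival sum was 401, 356 and 342 FPKM in the controls, 692, 464 and 810 FPKM with R837, and 630, 789 and 791 FPKM with spermidine. The death sum was 234, 213 and 227 FPKM in the controls, 233, 244 and 213 FPKM with R837, and 240, 188 and 208 FPKM with spermidine. All treated libraries exceeded the controls in the survival sum, and the 3 groups overlapped in the death sum. The ratio of both sums was 1.72, 1.68 and 1.51 in the controls, 2.97, 1.90 and 3.80 with R837, and 2.62, 4.20 and 3.81 with spermidine. These sums are a description with no test, since the members were named with results of these data known, and they mostly follow the Bcl2a1 copies. Bcl2a1b and Bcl2a1d made up 59.7% ± 1.25 of the survival sum in the controls, 71.6% ± 9.84 with R837 and 75.0% ± 0.714 with spermidine. The share of Mcl1 was 36.6%, 23.0% and 22.2% in the same order. The pore formers gave most of the death sum, with 144 ± 5.85 FPKM in the controls, 141.5 ± 13.8 with R837 and 127 ± 18.3 with spermidine, while the 3 BH3-only genes together stood at 80.7 ± 5.33, 88.8 ± 2.70 and 84.9 ± 9.61 FPKM (SD, n = 3 each). The ranges of the BH3-only sum overlapped between the groups.

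**Figure D3:**
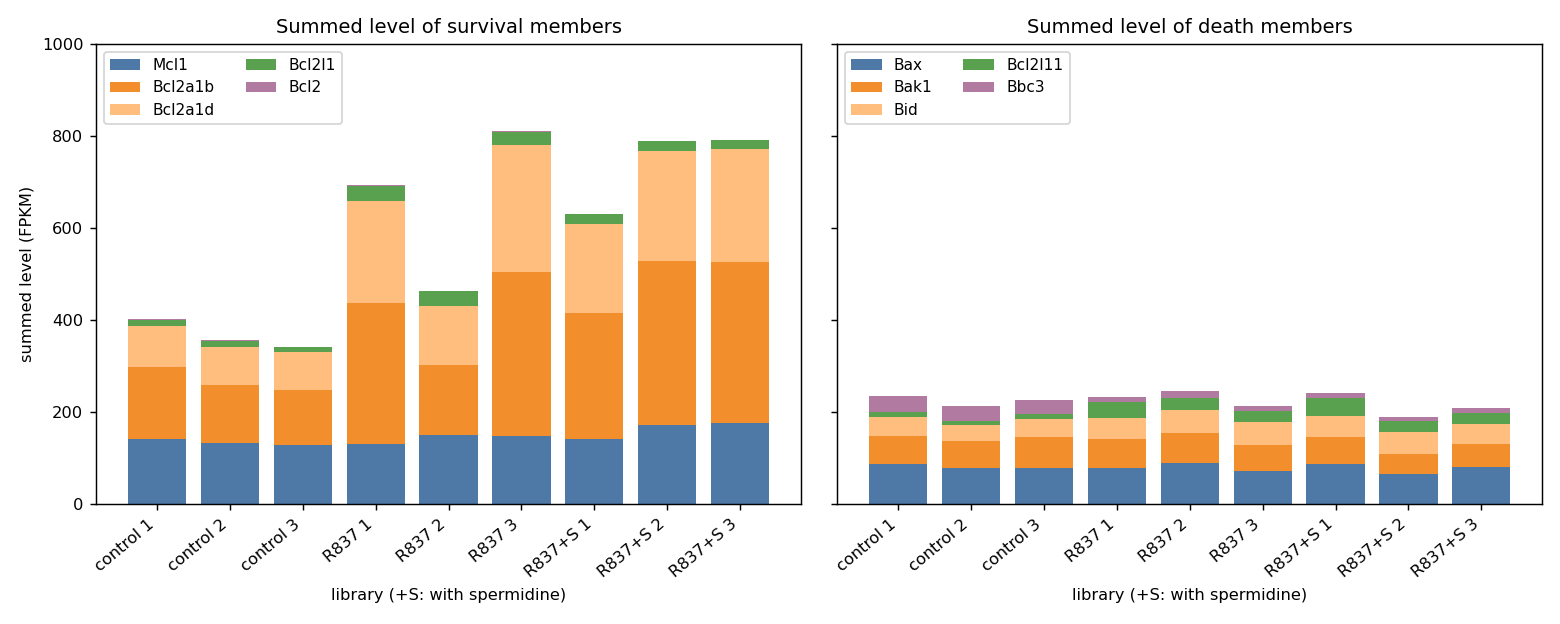
Summed level in FPKM (vertical axis, from 0) of the survival members (left) and the death members (right) in each of the 9 libraries, with 1 colour per gene; +S marks libraries with spermidine. The survival sum runs from 342 to 401 FPKM in the controls and from 464 to 810 FPKM in the treated libraries, and the death sum stays between 188 and 244 FPKM.

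Adding spermidine to R837 moved a single member past the threshold. Bcl2l1 fell, to 0.621 of its mean with R837 alone, a change of -0.66 ± 0.08 (limma adjusted p = 0.0018; 95% interval -0.85 to -0.47). All 3 spermidine libraries, at 20.0 to 20.6 FPKM, were below all 3 R837 libraries and above the controls, so that Bcl2l1 was still 1.66 times its control mean. The fall passed with each library left out in turn (limma adjusted p = 0.0028 to 0.012). It also passed with both R837 libraries that carried erythroid markers left out (-0.72, limma adjusted p = 0.011). Thus 1 of 10 members fell, with 8.0% of all genes tested falling, and 0 of 10 rose, with 5.60% of all genes rising. At an unadjusted p under 0.05 the limma fit gave 3 lower and 0 higher. The shares of all genes are those at the adjusted threshold, so the unadjusted counts cannot be set against them. This comparison and that of R837 with control share the R837 libraries.

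The other members gave the following with spermidine. Bbc3 was lower in each of the 3 spermidine libraries than in each R837 library, with a change of -0.34 ± 0.11 that missed the threshold (limma adjusted p = 0.073; 95% interval -0.59 to -0.09). Bak1 had -0.33 ± 0.11 (limma adjusted p = 0.096; 95% interval -0.59 to -0.07), with overlapping groups. Without spermidine replicate 1, which had the highest Bak1 and Bbc3 of its group, both passed, at -0.43 (limma adjusted p = 0.045) and -0.44 (limma adjusted p = 0.041). Mcl1 had 0.20 ± 0.10 (limma adjusted p = 0.23; 95% interval -0.03 to 0.42). The intervals were wide for the most variable members, -0.29 to 0.97 for Bcl2a1b, -0.36 to 0.73 for Bcl2a1d and -0.42 to 0.44 for Bcl2l11, so that differences of this size were not detectable here. For Bid, Bax and Bcl2 the intervals were -0.25 to 0.17, -0.31 to 0.24 and -0.31 to 0.13. The ratio of Bcl2l1 to Bcl2l11 FPKM was 1.31, 1.29 and 1.03 in the controls, 0.974, 1.26 and 1.30 with R837, and 0.532, 0.849 and 0.838 with spermidine. The spermidine libraries lay below all others in this ratio, while controls and R837 libraries overlapped. It too is a description with no test, and it takes up the fall of Bcl2l1 given above.

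**Figure D4:**
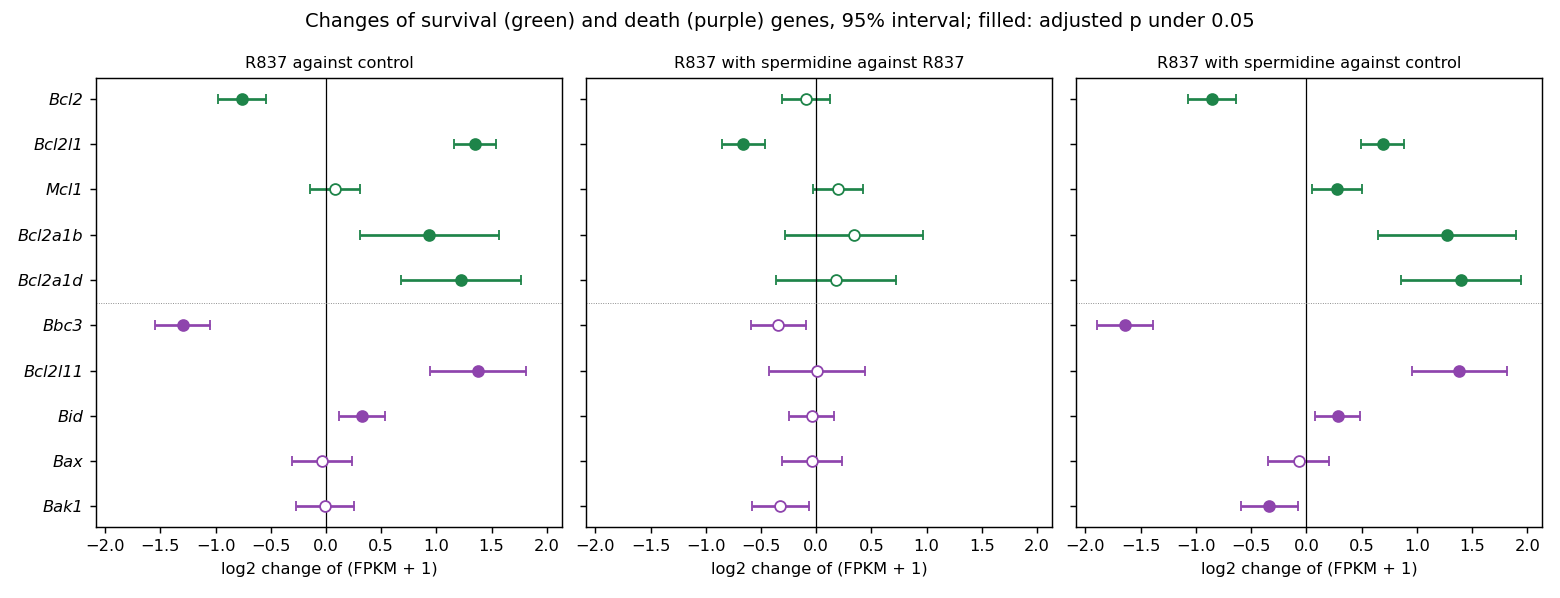
Change of each member on the log2(FPKM + 1) scale (horizontal axes) in the 3 comparisons, survival genes in green above the dotted line and death genes in purple below it; bars are 95% intervals and filled points passed an adjusted p of 0.05. With spermidine against R837 only Bcl2l1 is filled, at -0.66.

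Against control, cells given R837 with spermidine had 6 members higher and 3 lower of 10, with 14.1% of all genes tested higher and 32.7% lower. Leaving aside Bcl2, which again had to differ, 2 of 9 were lower. The rises of Bcl2a1b and Bcl2a1d, which can share reads, are again not separate observations. The rises were those of Bcl2a1d (1.40 ± 0.24, limma adjusted p = 0.0015), Bcl2l11 (1.39 ± 0.19, 0.00044), Bcl2a1b (1.27 ± 0.28, 0.0051), Bcl2l1 (0.69 ± 0.08, 0.00023), Bid (0.28 ± 0.09, 0.031) and Mcl1 (0.28 ± 0.10, 0.046). The falls were those of Bbc3 (-1.64 ± 0.11, limma adjusted p = 7e-06, the 45th lowest of the 11768), Bcl2 (-0.85 ± 0.10, 0.00014) and Bak1 (-0.34 ± 0.11, 0.038). Bax did not pass (-0.07, limma adjusted p = 0.66). The calls of Mcl1, whose groups overlapped, Bak1 and Bid were near the threshold. With the replicate number as a block they had adjusted p of 0.060, 0.055 and 0.059, and each lost the call in some fits with a library left out. With median-of-ratios scaling Bak1 had -0.14 (limma adjusted p = 0.37), Mcl1 0.48 (0.0044) and Bid 0.48 (0.0028). Mcl1 had 0.16 (limma adjusted p = 0.24) with quantile normalization. Both comparisons with control share the control libraries, and their values are given side by side only.

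Of 16 other genes of the family, 9 passed the filter. With R837 1 of the 9 rose and 3 fell, while 13.6% of all genes tested rose and 29.5% fell. Bcl2a1a, the third A1 copy, rose by 1.41 ± 0.13 (limma adjusted p = 4e-05), from 51.6, 49.7 and 46.8 FPKM to 135, 113 and 152 FPKM. Bmf, a BH3-only gene, fell by 0.83 (limma adjusted p = 4.3e-05), with mean levels of 2.52, 0.979 and 1.30 FPKM in controls, R837 and spermidine libraries; with a pseudocount of 0.1 the change was -1.28. Bnip3l, a receptor for the removal of mitochondria by autophagy, fell by 0.79 (limma adjusted p = 0.00097), from 67.7 ± 0.551 to 38.8 ± 2.45 FPKM. Bcl2l13 fell by 0.24 (limma adjusted p = 0.030), a call lost under several settings: median-of-ratios scaling gave -0.09 (limma adjusted p = 0.42), as did quantile normalization (0.36). Leaving out control replicate 1, 2 or 3 gave adjusted p of 0.059, 0.058 and 0.11 in limma, and leaving out the first R837 library 0.064. With spermidine added to R837, 1 of the 9 rose and 0 fell, while 5.60% of all genes tested rose and 8.0% fell. At an unadjusted p under 0.05 the limma fit gave 2 higher and 0 lower, with no share of all genes given at that threshold. The riser at the adjusted threshold was Bnip3, a relative of Bnip3l. It had 4.85, 4.24 and 4.01 FPKM in R837 and 8.74, 10.1 and 8.65 FPKM in spermidine libraries. Its groups did not overlap, and its change was 0.92 ± 0.14 (limma adjusted p = 0.0038); without both R837 libraries with erythroid markers it was 0.80 (limma adjusted p = 0.067). The 7 genes under the filter were Bcl2a1c, Bcl2l10, Bok, Bik, Hrk, Bcl2l14 and Bcl2l15. None of these genes exceeded 1.12 FPKM in any library, and Bcl2l10 was listed at 0 in all 9.

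Downstream of the pore formers, 14 of 14 genes of the apoptosome, the caspases and their inhibitors were tested, and with R837 3 rose and 4 fell, beside 13.6% and 29.5% of all genes tested. Casp9, the caspase activated on the apoptosome, had 7.13, 7.66 and 6.96 FPKM in the controls, 4.61, 3.31 and 1.55 FPKM with R837, and 2.20, 4.18 and 4.32 FPKM with spermidine added. All treated libraries were below all controls, and the treated groups overlapped. Its change with R837 was -1.06 ± 0.28 (limma adjusted p = 0.014), and without both R837 libraries with erythroid markers it was -0.55 (limma adjusted p = 0.15). Endog, a mitochondrial nuclease, fell by 0.84 (limma adjusted p = 0.0054), from 9.17 ± 0.258 to 4.75 ± 1.02 FPKM. Birc3, a ubiquitin ligase of the inhibitor of apoptosis family, rose by 0.78 (limma adjusted p = 0.0022), from 10.1 ± 0.355 to 18.4 ± 3.85 FPKM.

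In the death receptor arm, which meets the family at Bid, 11 of 11 genes were tested; with R837 4 rose and 4 fell, beside 13.6% and 29.5% of all genes tested. Cflar, the inhibitor of caspase-8, rose by 2.20 ± 0.12 (limma adjusted p = 1.1e-06), from 13.3, 14.6 and 12.4 FPKM to 70.8, 55.5 and 70.5 FPKM. Casp8 fell by 1.17 ± 0.31 (limma adjusted p = 0.015), from 24.1, 20.4 and 22.4 FPKM to 13.6, 4.497 and 12.8 FPKM. The groups of either gene did not overlap, and R837 replicate 2 was the lowest library for Casp8. Without that library the change of Casp8 was -0.72 (limma adjusted p = 0.00037), and without both R837 libraries with erythroid markers -0.67 (limma adjusted p = 0.0046). The death receptor gene Fas rose by 1.55 (limma adjusted p = 4.1e-05), with means of 6.38, 20.96 and 19.4 FPKM in the 3 groups. Tnfrsf1b, the TNF receptor without a death domain, rose by 1.36 (limma adjusted p = 7.8e-07), with means of 301, 775 and 573 FPKM. With spermidine added to R837, 2 of the 11 fell, Cflar by 0.48 (limma adjusted p = 0.031) and Tnfrsf1b by 0.43 (limma adjusted p = 0.0051). In the limma fit 0 rose, and of all genes tested 8.0% fell and 5.60% rose. At an unadjusted p under 0.05 it gave 1 higher and 3 lower, with no share of all genes given at that threshold. The call of Cflar with spermidine was lost without control replicate 1 (limma adjusted p = 0.052) or R837 replicate 1 (0.087) or 3 (0.072). It was also lost without spermidine replicate 1 (limma adjusted p = 0.087) or 3 (0.088). Further settings that ended it were TPM (limma adjusted p = 0.051), quantile normalization (0.059), the replicate block (0.07), no filter (0.071) and only the 2 groups compared (0.079).

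Among 18 regulators of family transcripts or proteins, 17 were tested and Trp73 was under the filter. With R837 8 rose and 4 fell, beside 13.6% and 29.5% of all genes tested. With spermidine added to R837 3 fell and 0 rose, beside 8.0% and 5.60% of all genes tested. At an unadjusted p under 0.05 the limma fit gave 2 higher and 5 lower, again without a share of all genes at that threshold. Stat5a, a transcription factor downstream of GM-CSF known to act on Bcl2l1, had 9.74, 9.63 and 9.71 FPKM in the controls, 74.5, 90.0 and 74.0 FPKM with R837, and 39.4, 40.1 and 39.4 FPKM with spermidine. As for Bcl2l1, the 3 groups were separate and the spermidine libraries lay in between. Its changes were 2.91 ± 0.08 with R837 (limma adjusted p = 2.7e-08) and -0.98 ± 0.08 with spermidine added (limma adjusted p = 0.00026). Nfkb1, an NF-kB subunit, rose by 2.22 (limma adjusted p = 1.8e-07) and fell by 0.35 with spermidine (limma adjusted p = 0.035), with means of 10.1, 50.8 and 39.4 FPKM. The call of that fall was lost without control replicate 1 (limma adjusted p = 0.054) or 2 (0.060), or R837 replicate 3 (0.051). It was also lost without any spermidine library (limma adjusted p = 0.085 to 0.10). Further settings that ended it were no filter (limma adjusted p = 0.063), only the 2 groups compared (0.09) and the replicate block (0.05). Without both R837 libraries with erythroid markers the change was -0.23. Rel, the NF-kB subunit known to drive A1 and BCL-XL genes in lymphocytes, rose by 1.51 (limma adjusted p = 8.2e-06), from 9.95 ± 0.873 to 30.3 ± 4.499 FPKM. Stat5b fell with spermidine by 0.60 (limma adjusted p = 0.0036), with means of 24.1, 31.5 and 20.4 FPKM. Fbxw7, part of a ubiquitin ligase that marks MCL1 for breakdown, fell by 0.99 with R837 (limma adjusted p = 0.00017), from 4.99 ± 0.329 to 2.02 ± 0.116 FPKM. Foxo3, Trp53, Cdkn1a and Mdm2 were named after their values were seen, because Bbc3 and Bcl2l11 are known FOXO3 targets and Bbc3, Cdkn1a and Mdm2 known p53 targets. Foxo3 fell by 0.93 with R837 (limma adjusted p = 1.3e-05), from 11.9 ± 0.633 to 5.77 ± 0.198 FPKM. Foxo1, the other FOXO gene listed, was named in the same way and did not pass. Its R837 change was 0.02 (limma adjusted p = 0.87), with means of 2.55, 2.595 and 2.68 FPKM in the 3 groups. Trp53, the gene of p53, had means of 17.1, 17.2 and 16.4 FPKM in the 3 groups and an R837 change of 0.00 (limma adjusted p = 1; 95% interval -0.21 to 0.21). Cdkn1a, a cell cycle inhibitor, rose by 0.92 ± 0.07 (limma adjusted p = 1.1e-05), with means of 104.0, 197 and 186 FPKM. Mdm2, the ubiquitin ligase of p53, rose by 0.66 ± 0.07 (limma adjusted p = 6.9e-05), with means of 60.9, 96.9 and 110.4 FPKM. Whether any of these regulators acted on Bbc3 or Bcl2l11 was not tested.

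The genes most like Bcl2l11 and Bbc3 over the 9 libraries were sought among 6316 genes with a mean of at least 5 FPKM, by the root mean square difference of their centred log2(FPKM + 1) values. Closest to Bcl2l11 were Gm17035 (0.204), Mon1b (0.207) and Slc25a37 (0.207), a mitochondrial iron importer. Closest to Bbc3 were Abcg1, a cholesterol exporter (0.109), N4bp3 (0.125) and Dhrs3, a retinal reductase (0.133). Abcg1 had mean levels of 142, 55.4 and 47.1 FPKM in the 3 groups, beside 32.5, 12.6 and 9.79 FPKM for Bbc3. Mon1b had 13.7, 35.6 and 39.1 FPKM, beside 10.1, 28.2 and 28.7 FPKM for Bcl2l11.

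Promoter windows of 250 bases were available for all 10 members, 15 windows in all, since some have several annotated starts. Each was searched on both strands for 6 motifs, and no window held more than 1 match, so that no matches overlapped. GTAAACA (FOXO) was found in 1 window of Bcl2l11 and 1 of Bbc3, and in 3.17% of 32851 windows of all genes. GAGGAAGT (PU.1) was found in the windows of Bcl2a1b, Bcl2a1d and Bak1 and in 2.44% of all windows. CACGTG (the E-box) was found 64 bases before the third start of Bbc3 and 9 bases before that of Bax, and in 6.02% of all windows. GGGA, any base, then TTTCC (NF-kB), TTCNNNGAA (STAT) and GAAA, any pair of bases, then GAAA (an interferon response element core) were not found in the members' windows and were in 0.356%, 7.02% and 2.98% of all windows. These are matches of letters in short windows and say nothing on binding.

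Some members share exonic bases with other annotated genes, and whether counting used the strand was not given in the sources used here. Bcl2a1b shares 401 bases with Gm29094 on the same strand, which had 3.0 to 11.9 FPKM. Bid shares 628 bases with Bcl2l13 on the other strand, which had 4.23 to 5.86 FPKM. Bcl2 shares 558 bases with D630008O14Rik, at most 0.737 FPKM and also lower in the treated libraries than in the controls, Bak1 shares 614 bases with Ggnbp1, at most 0.227 FPKM, and Bax shares 192 bases with Gm45808, listed at 0 everywhere. These neighbours were named after their values were seen.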

How the data were processed

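The deposited tables give FPKM for each gene in each library, per the file headers; they hold no counts, so no count test was run. The submitters' processing notes name HISAT2 and StringTie without versions, and list both mm8 and mm10 as builds; the sources used here do not give filters, strand setting or annotation. Of 52550 versioned Ensembl identifiers, 52403 (99.7%) matched GENCODE mouse release 21 (GRCm38) without the version, and where a symbol had several identifiers (73 symbols) their values were added. All 37 mitochondrial chromosome genes were listed at 0. Depth, read from the steps of low values, was 10600000 to 14400000 units per library, where 42.0% to 47.5% of low values lay within 0.05 of a whole unit; whether a unit is a read or a pair was not settled. Pearson's r between libraries of a group was 0.967 to 0.986.

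Genes that reached 1 FPKM in 3 or more of 9 libraries were tested on log2(FPKM + 1) in a single limma fit (limma 3.58.1, R 4.3.3, eBayes with a trend; two-sided), adjusted by Benjamini-Hochberg over 11768 genes in each of 3 comparisons, with a threshold of 0.05. Named were all members, up to 4 members of each other list with the largest changes that passed with R837 and with spermidine added, and the genes most like the member with the largest rise and fall. Some genes that this rule names are not reported here. Members and lists were chosen with earlier results of these data known. Sequences are those of GENCODE and RefSeq (GRCm38.p6). Alternatives were TPM, median-of-ratios and quantile scaling, a pseudocount of 0.1, other filters, only the groups compared, summed Bcl2a1 copies, the replicate block and each library left out; leaving out both R837 libraries with globin transcripts, and alternatives for genes other than the members, were chosen after seeing the data.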

Additional observations from a re-analysis of the deposited data

How the results depend on the processing

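Under 19 alternative settings, the changes of the members kept their direction and their side of the threshold in 166, 174 and 159 of the values for R837 against control, spermidine added to R837, and both agents against control, respectively; 10 and 25 calls against control were lost and 2 were gained with spermidine added. Bcl2l1 passed in all 3 comparisons under every setting run, and Bbc3, Bcl2l11 and Bcl2a1d (summed with its copies in 1 setting) passed in both comparisons with control. With a library left out in turn, members higher numbered 3 to 5, 0 to 0 and 4 to 6 in the same order, and members lower 1 to 2, 1 to 3 and 1 to 3. Of all genes tested in those fits, 11.9% to 14.9%, 2.38% to 6.29% and 11.5% to 17.1% were higher. The shares lower were 21.2% to 32.6%, 3.90% to 7.75% and 25.1% to 38.5%. The 3 members higher with R837 came without control replicate 2 or 3 or R837 replicate 3. Bcl2 left the test in each fit without a control, and with a mean FPKM of at least 5, which left 1 member lower with R837. The 3 lower with spermidine came without spermidine replicate 1.

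The replicate block gave 5, 0 and 4 members higher and 2, 1 and 2 lower. Of all genes tested it gave 13.1%, 3.99% and 13.7% higher and 27.8%, 5.62% and 30.9% lower. Same-numbered libraries correlated at -0.091 to 0.159, so the numbers were not taken as pairs. Over all genes the block gave 470 higher and 661 lower with spermidine against R837, and a fit of both groups alone 301 and 456, beside 659 and 942. Median-of-ratios scaling moved the median gene by 0.15 and 0.17 in the comparisons with control and the share of calls that were higher from 31.6% to 52.8% and from 30.1% to 52.9%; quantile scaling gave 43.6% and 43.8%.

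Signs that changed all belonged to members that had not passed. With a library left out in turn, the R837 changes ran from -0.118 to 0.0307 for Bax and from -0.0574 to 0.0688 for Bak1. Those with spermidine added ran from -0.0271 to 0.58 for Bcl2a1b, -0.138 to 0.423 for Bcl2a1d, -0.203 to 0.165 for Bcl2l11, -0.124 to 0.0875 for Bax and -0.106 to 0.0068 for Bid; Bax with both agents against control ran from -0.159 to 0.0526. Without both globin libraries, Mcl1 was -0.0447 and Bak1 0.0527 with R837, and Bcl2l11 -0.304 and Bid 0.087 with spermidine added. With R837, Mcl1 was -0.0987 with quantile scaling, Bak1 0.0068 with TPM, and Bax 0.147 and Bak1 0.171 with median-of-ratios scaling, which gave Bax 0.127 for both agents against control. The cause was not tested. Low depth limits Bcl2, and shared reads limit the single Bcl2a1 copies.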
